A study of Mus musculus with 8 samples.

Results

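The genes described here take up, reduce, store, export or release iron: Cybrd1, Steap3, Steap4, Tfrc, Trf, Fth1, Ftl1, Heph, Cp and Hmox1. They were measured in fibroblasts sorted from the colon of C57BL/6J wild-type mice. All 10 listed genes were found, among 30142 genes that a row of the deposited array table named alone, and each had exactly 1 such row. The list was drawn up by gene function around Cybrd1, which was already known as 1 of the lowest differences in these samples, so Cybrd1 was chosen by its measured difference between the populations and its values are a description and carry no test. The other genes stand in the list for their role in iron handling, with results of these samples already known. Rows were selected on the mean over all 8 arrays (the highest where a gene has several), which does not use the populations.

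Both groups were gated as Epcam-, CD45-, CD31- and gp38+ cells. They differed in surface CD90, the product of Thy1: 4 samples were CD90- (title numbers 13, 15, 17 and 19) and 4 were CD90+ (14, 16, 18 and 20). Each sample was 1 array, 4 mice gave the cells, and it is not stated which samples share an animal, so that p-values reflect the spread among these samples. No age, treatment or genotype beyond wild type is given in the labels used here. All values are deposited log2 expression. Means carry ± SD (n = 4 samples per population), and every difference subtracts CD90- from CD90+. Because the highest deposited value, 19.9, exceeds the 16 of a 16-bit scanner, folds hold on the deposited scale and are not ratios of RNA amounts. Levels of different genes cannot be compared on an array, and in bulk samples fewer cells of a type and less RNA per cell cannot be told apart.

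Iron enters most cells bound to transferrin, coded by Trf, through the transferrin receptor, coded by Tfrc. Ferric iron must be reduced before it can cross a membrane, which is done by reductases such as Cybrd1 (also called duodenal cytochrome b) on the gut epithelium and the STEAP proteins in endosomes. Ferritin, built of the chains coded by Fth1 and Ftl1, stores iron in the cytosol, haem oxygenase 1, coded by Hmox1, releases it from haem, and the multicopper oxidases coded by Heph and Cp oxidise the iron that leaves through ferroportin.

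Thy1 was between 5.46 and 5.57 in the CD90- samples and between 7.03 and 8.11 in the CD90+ samples, as labelled. The CD90- and CD90+ means of the other genes of the sort were 13.17 and 13.2 for Pdpn and 8.06 and 8.19 for Epcam. They were 6.24 and 6.59 for Pecam1 and 4.57 and 4.75 for Ptprc. The fibroblast list was bright in both populations, with a mean over its 6 measured genes of 15.36 to 15.62 and 15.6 to 15.72 (Pdgfra was not analysed here). The array's negative control rows had a median of 6.58 to 6.84 on the 8 arrays, and a value below it is a caution about its size. Samples 13 and 14 stood apart in sex-linked genes, with Xist at 16.16 and 16.27 against 5.89 to 9.32 in the other samples. Samples 13 to 16 had Cwc22 at 7.86 to 9.43, samples 17 to 20 at 13.47 to 14.7. Neither the Xist nor the Cwc22 split follows the populations.

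Of 16919 genes tested with limma, 30.0% had an adjusted p under 0.05, 14.2% higher and 15.9% lower in the CD90+ samples. The populations did not overlap in 32.5% of these genes. Of the 8 tested genes of the list other than Cybrd1, 4 rose (Cp, Ftl1, Hmox1 and Steap4) and 1 fell (Steap3), and the values of 6 did not overlap between the populations. Their median difference was 0.44, against -0.014 over all genes tested. Each of these 8 reached the level of 5.36 required for testing in all 8 samples, so none passed through 1 population alone. Heph did not reach that level in any sample and was not tested.

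**Figure D1:**
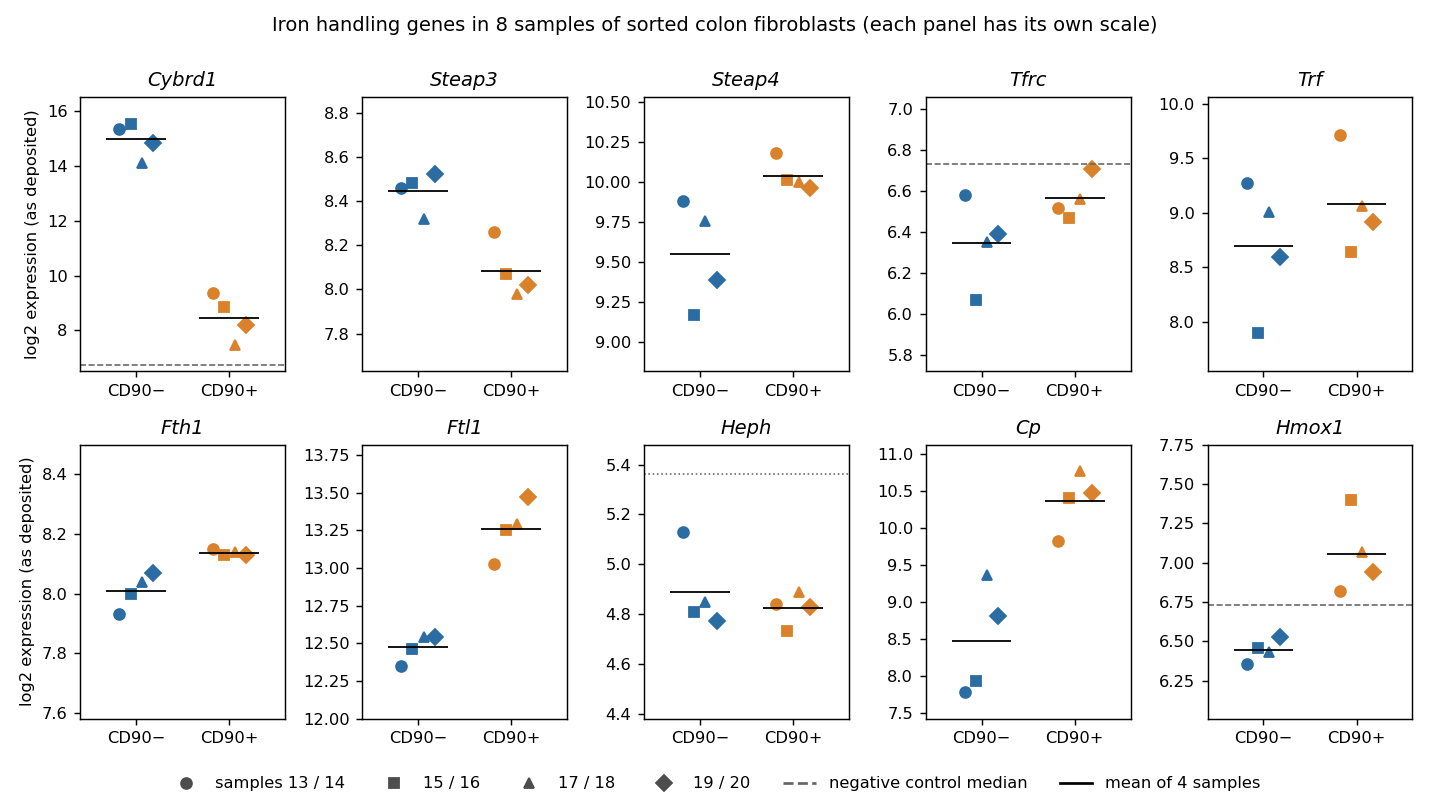
Log2 expression as deposited (vertical axis, own scale in each panel) of the 10 iron handling genes in the 4 CD90- (blue) and 4 CD90+ (orange) samples, with the mean as a black line, the negative control median dashed and the level required for testing dotted. Cybrd1 lies between 14.13 and 15.55 in CD90- and between 7.48 and 9.35 in CD90+ samples, while Cp and Ftl1 lie higher in every CD90+ sample.

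The reductase genes differed in direction. Cybrd1 was at 15.37, 15.55, 14.13 and 14.86 in CD90- samples 13, 15, 17 and 19. In CD90+ samples 14, 16, 18 and 20 it was at 9.35, 8.84, 7.48 and 8.21. The lowest CD90- sample thus lay 4.78 above the highest CD90+ sample, and all 8 values were above the median of the negative control rows. The means were 14.98 ± 0.64 and 8.47 ± 0.81, a difference of -6.51, and 2 of all genes tested had a lower one. Without samples 13 and 14 the difference was -6.67.

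The promoter window of Cybrd1 is printed because it is the gene of the list with the lowest difference, and those of Cp and Ftl1 because theirs were the highest. RefSeq (GRCm38.p6) windows were at hand for 7 of the 10 genes, 13 windows in all, but not for Trf, Hmox1 and Heph. In these windows the 250 bases before the annotated start were read. They were searched on both strands for the core bound by hypoxia-inducible factors (ACGTG or GCGTG) and for the antioxidant response element bound by NRF2 (TGACNNNGC), which do not overlap in the printed windows; matches are in capitals. RefSeq's table holds 2 windows of Cp, and the upstream of these is shown.
Cybrd1 (chr2:71117804-71118053, plus strand): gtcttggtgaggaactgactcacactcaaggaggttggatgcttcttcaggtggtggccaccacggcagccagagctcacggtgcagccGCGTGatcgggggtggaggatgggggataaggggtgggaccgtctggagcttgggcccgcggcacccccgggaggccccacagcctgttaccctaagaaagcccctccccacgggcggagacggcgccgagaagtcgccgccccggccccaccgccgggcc
Ftl1 (chr7:45459887-45460136, minus strand): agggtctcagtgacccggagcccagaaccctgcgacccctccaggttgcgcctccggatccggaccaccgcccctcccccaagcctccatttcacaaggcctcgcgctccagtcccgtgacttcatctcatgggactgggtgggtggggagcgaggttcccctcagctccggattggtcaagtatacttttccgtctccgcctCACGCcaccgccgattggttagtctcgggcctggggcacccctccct
Cp (chr3:19956804-19957053, plus strand): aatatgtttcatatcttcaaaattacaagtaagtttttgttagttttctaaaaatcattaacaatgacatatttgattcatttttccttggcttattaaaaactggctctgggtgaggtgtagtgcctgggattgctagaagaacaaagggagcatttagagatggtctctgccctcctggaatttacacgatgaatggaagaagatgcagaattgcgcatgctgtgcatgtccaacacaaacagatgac
The Cybrd1 window held 1 match to the hypoxia core, starting at base -161, and the Ftl1 window held 1, on the opposite strand, starting at base -47. The printed Cp window held 0. Of all 32851 such windows, 38.6% held a match to the hypoxia core and 10.2% a match to the antioxidant element, of which the 13 windows of these genes held 0. At least 1 window each of Tfrc, Fth1 and Steap3 also matched the hypoxia core, while no window of Cp or Steap4 did. A match is a run of letters and not a shown binding site.

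Steap3, the ferrireductase of endosomes that serves transferrin-bound iron, was at 8.46, 8.48, 8.32 and 8.52 in the CD90- samples. It was at 8.26, 8.07, 7.98 and 8.02 in the CD90+ samples. Every CD90+ value was lower, though the nearest samples were only 0.07 apart. Steap3 fell by 0.37 (95% interval -0.55 to -0.18, limma adjusted p = 0.00855).

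Steap4, a metalloreductase found in adipose tissue and in inflammation, was at 9.88, 9.17, 9.76 and 9.39 in the CD90- and at 9.96 to 10.18 in the CD90+ samples. All CD90+ values were higher, by 0.08 between the nearest samples. The difference was 0.49 (95% interval 0.15 to 0.83, limma adjusted p = 0.0389). This call was lost without any 1 of samples 14, 15, 16, 18, 19 and 20 (limma adjusted p up to 0.103) and without a filter on dim rows (0.0557).

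The transferrin pathway genes did not pass the test. Tfrc was at 6.58, 6.07, 6.35 and 6.39 in the CD90- and at 6.52, 6.47, 6.56 and 6.71 in the CD90+ samples. All 8 values were under 6.73, the negative control median over all samples, and the populations overlapped. In sample 20, however, Tfrc lay above the median of that array's own control rows, 6.66. The difference was 0.22 (95% interval -0.03 to 0.47, limma adjusted p = 0.17). It was called with array weights (0.26, limma adjusted p = 0.041).

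Trf was at 9.27, 7.9, 9.01 and 8.6 in the CD90- and at 9.71, 8.64, 9.06 and 8.92 in the CD90+ samples. Samples of 1 population differed by up to 1.37, more than the difference between the means of 0.39 (95% interval -0.33 to 1.11, limma adjusted p = 0.401). When samples with neighbouring title numbers were treated as pairs, which no label states, Trf had a limma adjusted p of 0.0481.

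The ferritin chains are coded by separate genes. The heavy chain carries the site that oxidises iron and the light chain aids the formation of the mineral core. Ftl1, the light chain gene, was at 12.35, 12.46, 12.54 and 12.54 in the CD90- samples. It was at 13.03, 13.25, 13.29 and 13.47 in the CD90+ samples, 0.49 or more above every CD90- sample. Ftl1 rose by 0.79, 1.73-fold on this scale (95% interval 0.57 to 1.01, limma adjusted p = 0.000386), and 94.5% of the genes tested had a lower difference. The row of Ftl1 carries 3 gene identifiers, 1 of them a pseudogene, Ftl1-ps2, so its value is that of near-identical copies together. A further 2 rows name Ftl1 together with other genes and were not used.

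Fth1, the heavy chain gene, was at 7.93, 8.0, 8.04 and 8.07 in the CD90- and at 8.15, 8.13, 8.14 and 8.13 in the CD90+ samples. The populations did not overlap, but the nearest samples were 0.06 apart. The difference of 0.13 did not pass the test (limma adjusted p = 0.118), and its 95% interval reached up to 0.26, below the lower end of the interval of Ftl1. The difference between the genes was not tested.

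Hmox1 was at 6.36, 6.46, 6.43 and 6.53 in the CD90- samples, all under that negative control median. It was at 6.82, 7.4, 7.07 and 6.94 in the CD90+ samples, all above it. Hmox1 rose by 0.61, 1.53-fold (95% interval 0.34 to 0.89, limma adjusted p = 0.00507), from a level near that of the array's negative controls.

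The multicopper oxidases were a dim and a rising gene. Heph, the membrane-bound ferroxidase hephaestin of the gut, was at 5.13, 4.81, 4.85 and 4.77 in the CD90- and at 4.84, 4.73, 4.89 and 4.83 in the CD90+ samples. These values overlapped and lay below the level required for testing and below the negative control rows. Cp codes for ceruloplasmin, the copper-carrying ferroxidase of plasma that also exists in a membrane-anchored form. Cp was at 7.78, 7.93, 9.36 and 8.81 in the CD90- and at 9.82, 10.4, 10.77 and 10.48 in the CD90+ samples. Every CD90+ value was higher, by 0.47 between the nearest samples. Cp rose from 8.47 ± 0.75 to 10.37 ± 0.4, a difference of 1.9 or 3.73-fold (95% interval 1.09 to 2.71, limma adjusted p = 0.00403), and 98.5% of the genes tested had a lower difference. Its spread was widest within the CD90- population, where samples 13 and 15 were below 8 and samples 17 and 19 above it.

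**Figure D2:**
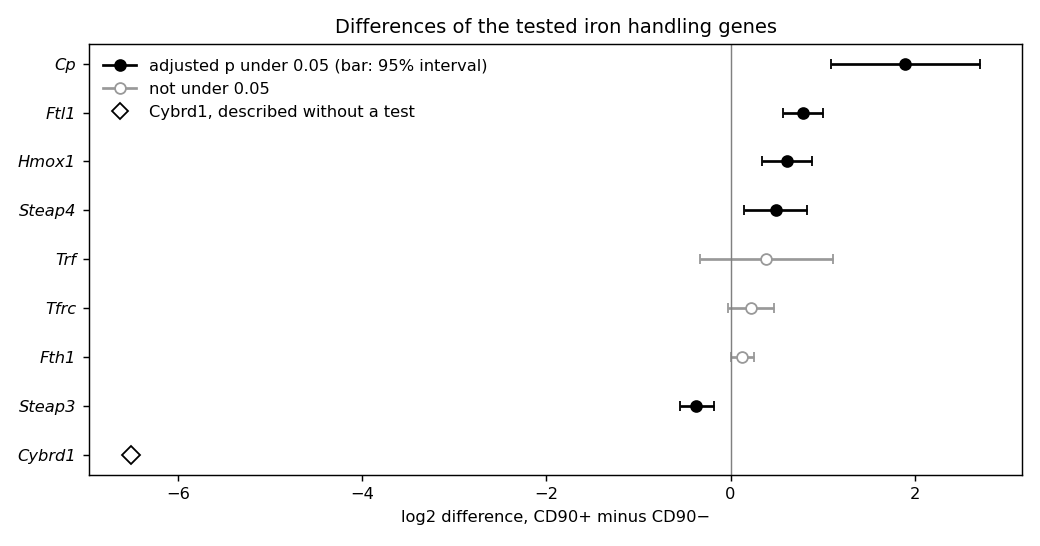
Log2 difference, CD90+ minus CD90- (horizontal axis), of the 9 tested iron handling genes, with limma's 95% interval as bars for the 8 that were tested as results; filled points had an adjusted p under 0.05. Cp, Ftl1, Hmox1 and Steap4 lie above 0 and Steap3 below it, while Cybrd1, shown without an interval, lies at -6.51.

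Genes of other cell types were read beside these values. Of the macrophage list, all 10 genes were measured and 4 reached the level for testing, of which Cd68, C1qa and Cx3cr1 rose, by 1.05, 0.35 and 0.58. C1qa and Cx3cr1 were below 6.73, the negative control median over all samples, in all 8 samples. In sample 14, however, Cx3cr1 at 6.65 lay above the median of that array's own control rows, 6.58. The remaining tested gene, Lyz2, differed by 1.05 and did not pass (limma adjusted p = 0.0664). The list's mean per sample was 5.47 to 5.67 in the CD90- and 5.77 to 6.08 in the CD90+ samples. Its defining genes Ptprc, Adgre1, Csf1r and Cd163 were below the level for testing. Cd68, a lysosomal protein gene, was above the negative control rows in both populations, at 8.75 ± 0.12 and 9.8 ± 0.49. For the 6 measured genes of the enteric glia list, the mean per sample was 5.48 to 5.79 in the CD90- and 6.76 to 7.79 in the CD90+ samples. Sox10, S100b, Foxd3 and Erbb3 reached the level for testing in all 8 samples and rose, by 1.23, 1.17, 0.29 and 1.47. Foxd3 was below the negative control rows in all 8 samples. Gfap reached that level in 0 and Cdh19 in 2 of the 4 CD90- samples, so their calls rest on the filter and are not counted. In the CD90- samples all 6 means were below the negative control rows. Of the 8 epithelial genes measured, 0 were called, and the list's mean overlapped, at 7.73 to 9.7 and 8.09 to 9.74. In each population 6 of these 8 had means above the negative control rows, Epcam among them. Krt8, also 1 of them, was at 10.73 ± 1.3 in the CD90- and 11.05 ± 1.2 in the CD90+ samples. Epithelial RNA was thus measured in both populations, although the cells were gated as Epcam-. Erythroid genes could be read for 2 of 8, both below the level for testing. Of 6 tested endothelial genes, 1 rose and 2 fell. Of 7 tested genes of smooth muscle and interstitial cells, Actg2, Des and Cnn1 rose and Ano1 fell. Lmod1 was also called higher, but it reached the level for testing in only 2 of its 4 CD90- samples and is not counted. Beside these lists, 30.0% of all genes tested were called. The part of macrophage, glial or other cells in the higher Ftl1, Hmox1 and Cp values was not tested. That of epithelial cells in the Cybrd1 values was not tested either.

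Other genes of iron and haem handling came from 10 lists of 91 genes, of which 84 were measured and 70 tested. Of these 70, 14 rose and 17 fell, together 44.3% against the 30.0% of all genes tested, and their median difference was -0.02. They were listed by role with earlier results of these samples known, and Bmp2 and Bmp6 were already known to differ. The 14 include Flvcr2, which reached the level for testing in 4 CD90+ but only 2 CD90- samples. Its call is therefore not taken as a result. The shares of single lists rest on few genes and were not tested against that of all genes.

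**Figure D3:**
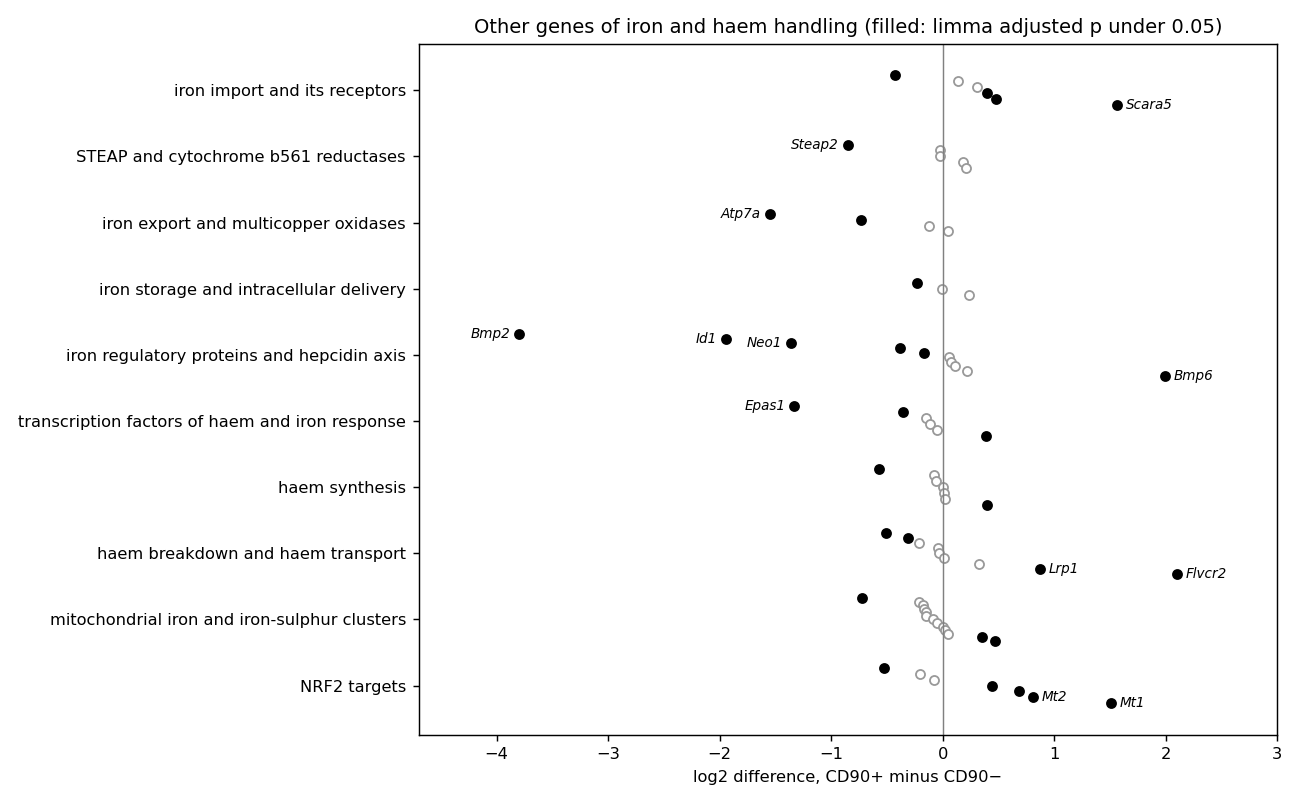
Log2 difference, CD90+ minus CD90- (horizontal axis), of the 70 tested genes of 10 iron and haem lists (rows), filled where the limma adjusted p was under 0.05. Filled points lie on both sides of 0. Bmp2 lies lowest at -3.8 and Flvcr2, which passed the filter through its CD90+ samples, highest at 2.1.

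Among 6 tested genes of iron import, 3 rose and 1 fell (66.7% called, beside 30.0% of all genes tested). Scara5, a scavenger receptor that binds ferritin, was at 6.88, 6.28, 6.22 and 6.23 in the CD90- and at 8.45, 7.95, 7.56 and 7.9 in the CD90+ samples. It rose by 1.56 (limma adjusted p = 0.000609). The metal ion transporter genes Slc39a14 and Slc39a8 rose by 0.48 and 0.4. The CD90- means of all 3 were below the negative control rows (6.4 for Scara5, with 1 of its 4 CD90- samples above them), so the sizes of these differences are not exact. Slc39a8 lost its call without sample 15 or 19 (limma adjusted p up to 0.0583). Slc11a2, which codes for the divalent metal transporter that takes up the iron reduced by Cybrd1 in the duodenum, was at 8.86, 8.9, 8.7 and 8.96 in the CD90- and between 8.41 and 8.44 in the CD90+ samples. It fell by 0.43 (limma adjusted p = 0.00169).

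Of 5 tested genes of STEAP and cytochrome b561 reductases, 0 rose and 1 fell (20.0% called, beside 30.0% of all genes tested). Steap2 fell by 0.85, from 9.11 ± 0.018 to 8.26 ± 0.1 (limma adjusted p = 2.46e-05). Frrs1, a ferric reductase gene, was at 7.48 to 7.72 and 7.72 to 7.89 and did not pass (limma adjusted p = 0.117; chosen after its values were seen).

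Of 4 tested export and copper genes, 0 rose and 2 fell, beside 30.0% called among all genes tested. Slc40a1, which codes for ferroportin, the exporter of iron from cells, was at 9.43, 9.0, 8.86 and 8.94 in the CD90- and at 8.75, 8.01, 8.19 and 8.38 in the CD90+ samples. All CD90+ values were lower and it fell by 0.73 (limma adjusted p = 0.0144). Atp7a, the copper pump that loads copper onto secreted enzymes, fell by 1.55, from 10.79 ± 0.051 to 9.24 ± 0.091 (limma adjusted p = 1.02e-06). Slc40a1 and Cp thus had differences of opposite sign. Of 3 tested genes of storage and delivery, Pcbp1, an iron chaperone, fell by 0.23 (33.3% called, beside 30.0% of all genes tested). Pcbp1 lost its call without sample 15, 17 or 18 (limma adjusted p up to 0.0615).

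Of 10 tested genes of iron regulatory proteins and the hepcidin axis, 1 rose and 5 fell (60.0% called, beside 30.0% of all genes tested). Bmp6, the ligand that in the liver raises the iron hormone hepcidin, was at 12.77 to 13.17 in the CD90- and at 14.57 to 15.26 in the CD90+ samples, and rose by 1.99 (limma adjusted p = 2.07e-05). Bmp2, a ligand of the same pathway, was at 10.83 to 11.24 and 6.8 to 7.42, and fell by 3.8 (limma adjusted p = 5.42e-07). Id1, a target of BMP signals, fell by 1.94, and Neo1, the gene of the hemojuvelin-binding receptor neogenin, fell by 1.36. Ireb2 and Aco1, named after their values were seen, code for the iron regulatory proteins that bind the messages of ferritin and the transferrin receptor. Ireb2 was at 8.43 to 8.61 and 7.96 to 8.22 and fell by 0.38 (limma adjusted p = 0.00569). Aco1 fell by 0.17 (limma adjusted p = 0.0495), a call that no fit with 1 sample left out kept (up to 0.124), nor the fit with neighbouring title numbers as a block (0.0611).

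Of 6 tested transcription factors of the iron and haem response, 1 rose and 2 fell, beside 30.0% called among all genes tested. Epas1, which codes for the hypoxia-inducible factor that activates Cybrd1 in the duodenum, was at 13.24, 13.41, 13.24 and 13.33 in the CD90- and at 11.6, 12.13, 12.1 and 12.08 in the CD90+ samples. It fell by 1.33 (limma adjusted p = 6.82e-05). Hif1a was at 10.58 to 11.08 and 10.67 to 10.84, with a difference of -0.15 (95% interval -0.41 to 0.1, limma adjusted p = 0.337; chosen after its values were seen). Nfe2l2, the gene of NRF2, which activates ferritin and Hmox1, fell by 0.36 (limma adjusted p = 0.045), a call lost without any 1 sample except 17 (up to 0.11). Bach1, the haem-binding repressor of Hmox1, rose by 0.39 and lost its call without sample 15, 16, 19 or 20 (limma adjusted p up to 0.0733) and with neighbouring title numbers as a block (0.0635).

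Of 9 tested genes of haem breakdown and transport, 2 were higher, counting Flvcr2, and 2 fell (44.4% called, beside 30.0% of all genes tested). Flvcr2, a transporter gene of the family that carries haem and choline, was higher by 2.1. Its CD90- mean of 5.27 was below the negative control rows, and 2 of its 4 CD90- samples did not reach the level for testing. It thus passed the filter through its CD90+ samples, and its call is not taken as a result. Lrp1, a receptor for haem bound to hemopexin among many ligands, rose by 0.87 (limma adjusted p = 0.000729). Slc48a1, a haem transporter gene, fell by 0.51, and Slc46a1, a folate transporter gene also described for haem, by 0.31. Slc46a1 lost its call without sample 16 or 20 (limma adjusted p up to 0.0602). Of 7 genes of haem synthesis, Alas1, the first enzyme of the pathway, rose by 0.4 and Ppox fell by 0.57. This was 28.6% called, beside 30.0% of all genes tested. Alas1 lost its call without sample 15, 16, 17, 19 or 20 (limma adjusted p up to 0.0574).

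Of 13 tested genes of mitochondrial iron and iron-sulphur clusters, 2 rose and 1 fell, which is 23.1% called beside 30.0% of all genes tested. Slc25a37, the mitochondrial iron importer mitoferrin 1, fell by 0.72, and Isca1 and Lyrm4, of iron-sulphur cluster assembly, rose by 0.47 and 0.35. Of 7 tested targets of NRF2 and metallothioneins, 4 rose and 1 fell (71.4% called, beside 30.0% of all genes tested). Mt1, a metallothionein that binds zinc and copper, rose by 1.51, Mt2 by 0.81, Srxn1 by 0.68 and Gclc (named after its values were seen) by 0.44. Nqo1 fell by 0.53 at means below the negative control rows. Mt2 lost its call without sample 16, 18, 19 or 20 (limma adjusted p up to 0.0892) and with that block (0.0643), and Nqo1 without any 1 sample except 14 (up to 0.123).

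The genes with the profile closest to Cybrd1 were found by the root mean square difference of log2 values over the 8 samples, each gene centred on its own mean. This is a description of the same contrast that singled out Cybrd1. Closest was Ednrb, an endothelin receptor gene, at 0.304. Ednrb was at 14.43, 14.48, 13.77 and 14.05 in the CD90- and at 8.04, 7.6, 6.89 and 7.14 in the CD90+ samples, so that it shared with Cybrd1 the order of the samples within each population. Next were Sox6 at 0.764, Casq2 at 0.826, Tspan13 at 0.846 and Bmp3 at 0.904.

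**Figure D4:**
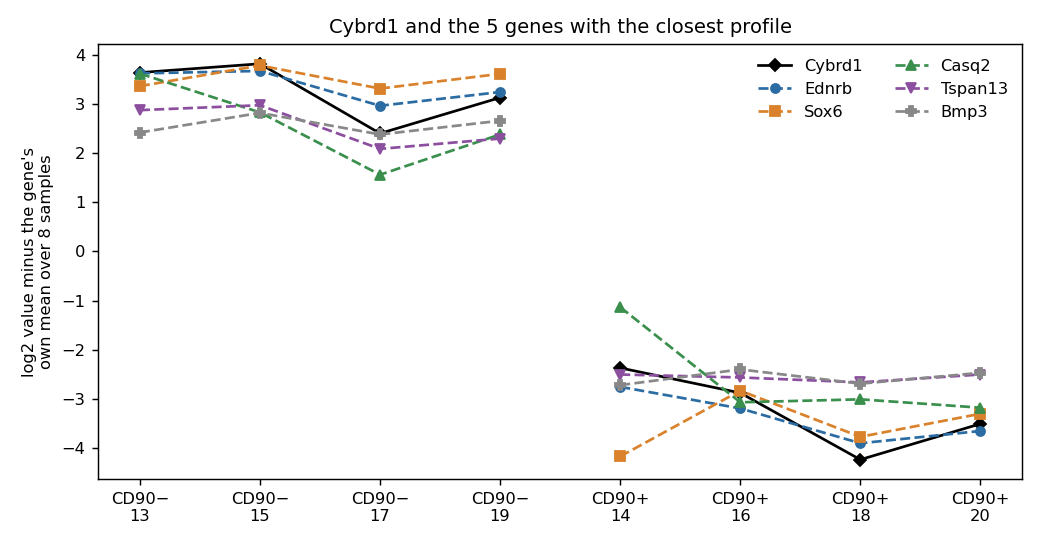
Log2 values minus each gene's own mean over the 8 samples (vertical axis) for Cybrd1 and the 5 genes with the closest profile, by sample (horizontal axis). Ednrb follows Cybrd1 most closely, at a root mean square difference of 0.304, with sample 15 highest and sample 18 lowest for both genes.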

How the data were processed

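RNA of 8 sorted colon fibroblast samples was measured on 1-colour Affymetrix mouse transcriptome arrays. Per the labels' protocols, 2 ng of RNA was amplified and labelled for each. The authors deposited a log2 value for each transcript cluster on each array. Affymetrix Expression Console 1.1 and RMA were used, per the submitters' processing notes; RMA corrects background, quantile-normalizes and summarises probes; the settings and the genome build are not given in the sources used here.

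Of 65956 clusters, 30604 named 1 gene, 2146 several and 33206 none. The symbols of those that named 1 gene were then updated through RefSeq (GRCm38.p6). The row with the highest mean stood for a gene, and it had to reach 5.36, the median of all clusters, in 4 or more samples. This left 16919 genes for limma 3.58.1 in R 4.3.3 (lmFit, eBayes), two-sided, with Benjamini-Hochberg adjustment over all of them, a threshold of 0.05 and no block. Members and lists were chosen with earlier results of these data known. Named were all members, per companion list up to 4 called genes with the largest absolute difference, and the 5 genes closest to Cybrd1. The list summaries of cell type markers and the genes of the sort were also given. Further genes, only some of them marked so in the text, were named after their values were seen. The fit was also run on simulated data (16919 genes, 200 changed, samples drawn independently). There limma called 50.7%, 88.1% and 98.5% of genes changed by 0.5, 1 and 2 (log2) in the right direction. Of 164 calls, 6 were of unchanged genes. In the real comparison 30.0% of genes were called, far more than were changed in the simulation. These shares therefore describe the simulated setting and not the measured samples. The number of arrays limits the precision. Alternatives changed the filter, normalization, variance model, array weights, choice of row, pairing and samples. Plots used matplotlib 3.10.9 (Python 3.11.15).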

Additional observations from a re-analysis of the deposited data

Results flagged for a closer look

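In 7 of 82 sets of 4 samples (each iron gene named or called, in each population), 1 sample lay far from the other 3; the gap exceeded Dixon's 95% critical share of the range, and chance gives this in about 1 of 20 sets. None of the 10 iron handling genes themselves was among them. Sample 13 stood apart in 3: Scara5 at 6.88 against 6.22 to 6.28, Alas1 at 8.69 against 8.27 to 8.3 and Nqo1 at 6.64 against 6.07 to 6.16 in the other CD90- samples. Sample 14 stood apart in 3: Neo1 at 11.4 against 10.78 to 10.83, Epas1 at 11.6 against 12.08 to 12.13 and Flvcr2 at 7.19 against 7.42 to 7.46 in the other CD90+ samples. Sample 20 stood apart in Lyrm4, at 8.95 against 8.72 to 8.73. Samples 13 and 14 are also those that stood apart in Xist.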

How the results depend on the processing

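Across 18 alternatives 0 called results changed direction. Cp kept its call under all 18, and its difference ran from 1.54 to 2.26. Without 1 sample the difference was -6.8 to -6.18 for Cybrd1, 1.67 to 2.19 for Cp, 0.72 to 0.86 for Ftl1, 0.5 to 0.7 for Hmox1, -0.42 to -0.33 for Steap3, 0.362 to 0.597 for Steap4, 0.13 to 0.3 for Tfrc, 0.12 to 0.58 for Trf and 0.1 to 0.15 for Fth1. Steap4 lost its call without a filter on dim rows (0.49), in samples 13 to 16 (0.57) and in samples 17 to 20 (0.41). Tfrc was called with array weights (0.26). Trf was called with neighbouring title numbers as a replicate block (0.39), which changed no other call among the 8 tested iron handling genes other than Cybrd1. Of the 70 companion genes tested, 64 had the same call with this block, 3 lost theirs (Bach1, Mt2 and Aco1, limma adjusted p = 0.0635, 0.0643 and 0.0611) and 3 were newly called (Hfe, Pcbp2 and Blvrb, 0.0222, 0.0254 and 0.0153). Deviations from the population means correlated at 0.289 to 0.456 within these pairs, a hint from the data and not from the labels. For samples 19 and 20, at 0.289, the neighbour was not the best match in both directions. In samples 13 to 16 only, a split taken from Cwc22 after seeing the data, 351 genes were higher and 433 lower, 2 and 5 among the companion genes, and Ftl1 (0.74), Hmox1 (0.697), Steap3 (-0.31) and Steap4 had no call; this fit had 2 samples per population. In samples 17 to 20 only, Ftl1, Hmox1, Cp and Steap3 were called. Of 31 called companion genes, Flvcr2 included, 22 kept the call whichever 1 sample was left out, when 10 to 16 were higher and 13 to 17 lower. Without 1 sample 1905 to 2351 genes were higher and 1979 to 2861 lower. Signal near the negative control rows limits Tfrc, Hmox1 and Heph.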

Other observations

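The difference of Cybrd1 was alike between samples with neighbouring title numbers, at -6.02 for 14 minus 13, -6.71 for 16 minus 15, -6.65 for 18 minus 17 and -6.65 for 20 minus 19, although its level ranged over 1.42 in the CD90- and 1.87 in the CD90+ samples. Cp showed 2.05, 2.46, 1.41 and 1.67 for these subtractions. The light chain gene Ftl1 showed 0.69, 0.79, 0.75 and 0.92, and the heavy chain gene Fth1 0.22, 0.13, 0.1 and 0.06. No label says that such samples share a mouse.

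The 2 rows that name Ftl1 together with other genes were also higher in the CD90+ samples. The first lay between 13.4 and 13.8 in the CD90- and between 14.19 and 14.57 in the CD90+ samples, and the other between 13.96 and 14.22 and between 14.68 and 14.9. They are no independent measurement of Ftl1.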
